A study of Homo sapiens with 12 samples.

Results

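Untreated SH2 cells were compared with untreated control cells, which gives the difference between both kinds of cell before any doxycycline was added. The members are the libraries titled as untreated: 4 of SH2 cells (sets 1 to 4) and 2 of control cells (sets 2 and 4), so 6 of the 12 libraries of the series. Every library comes from 697 (EU3), an established human B-cell precursor leukaemia line, and from its fraction with high aldehyde dehydrogenase activity (ALDH+). SH2 cells carry an shRNA against the mRNA of IGF2BP1 that doxycycline switches on together with a green fluorescent reporter. In the untreated libraries it was not induced, and only cells given doxycycline were sorted for the reporter. The labels describe control cells as those for the drug itself. They do not state whether these cells carry the scrambled shRNA that the protocol names. The series text describes each set as a new sort of ALDH+ cells. The labels give 1 cell line for all libraries, and do not say how many transduced clones each kind of cell holds. Whether both kinds of cell are of that line was not tested.

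A B-cell precursor rearranges its heavy chain genes first, with the RAG recombinase and the enzyme terminal transferase, and pairs the new chain with a surrogate light chain before it chooses kappa or lambda. Mature B cells leave those genes behind, and gain receptors such as CD20 (MS4A1), CD40 and CCR7. On activation through CD40 and NF-kB they raise MHC class II, costimulatory ligands and chemokines, and germinal centres are where they mature further. Precursor leukaemias are halted before that stage.

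Reads were counted at the end of each transcript (QuantSeq), and levels are CPM, read counts scaled to a common depth with TMM. The 6 untreated libraries held 2210291 to 3370952 reads in genes, and 16021 to 17439 genes had a count. Where an untreated group has no count, its limit is the CPM of 3 counts over the group: 0.246 for SH2 and 0.616 for control cells. Values below are listed for SH2 sets 1, 2, 3 and 4 and for control sets 2 and 4, in that order. Correlations (Pearson r of log2 CPM over genes) were 0.905 to 0.954 among SH2 libraries, 0.927 between the control libraries and 0.806 to 0.868 across the kinds of cell. The labels give a single cell line, yet light chain reads split by kind of cell. Kappa took 0% to 0.141% of light chain constant reads in the SH2 libraries, and 99.7% and 99.9% in the control libraries (Wilson 95% intervals 99.5% to 99.9% and 99.8% to 100%; counting error only). With 4 against 2 libraries an exact permutation test, two-sided, gave p = 0.133, the smallest this design allows. Control set 2 also had more reads of T-cell genes than any other untreated library, and its values are given beside each result they touch.

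Of 11968 genes tested, 938 differed (7.84%; adjusted p under 0.05, edgeR quasi-likelihood test with Benjamini-Hochberg adjustment). SH2 cells had higher levels of 352 (2.94%) and lower levels of 586 (4.9%), while the median log2 fold change of all genes was 0.03. The median fold was 7.87 among the higher and 8.27 among the lower genes. These medians are over called genes only, whose smallest absolute log2 fold change was 0.89 among the higher and 0.83 among the lower. In simulated counts, where 90 genes were called, the test recovered 0% of 2-fold changes. How far the selection raised the medians was not tested. Of the higher genes 71, and of the lower genes 82, had 0 counts in the other cells, where the fitted fold depends on the prior count. In 937 of the 938 the groups did not overlap; over all genes tested, no overlap was found for 15.5% (SH2 higher) and 17.4% (SH2 lower). The number of genes called rested on both control libraries. It was 343 without control set 2 and 490 without control set 4, and 637 to 853 without 1 SH2 library. Genes called higher in SH2 were 99 and 151, and genes called lower in SH2 were 244 and 339, without control set 2 and set 4. Without SH2 set 2 or set 3, those higher were 225 and 231. Of the 938 genes, 339 were still called in the same direction without control set 2 and 449 without control set 4.

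**Figure D1:**
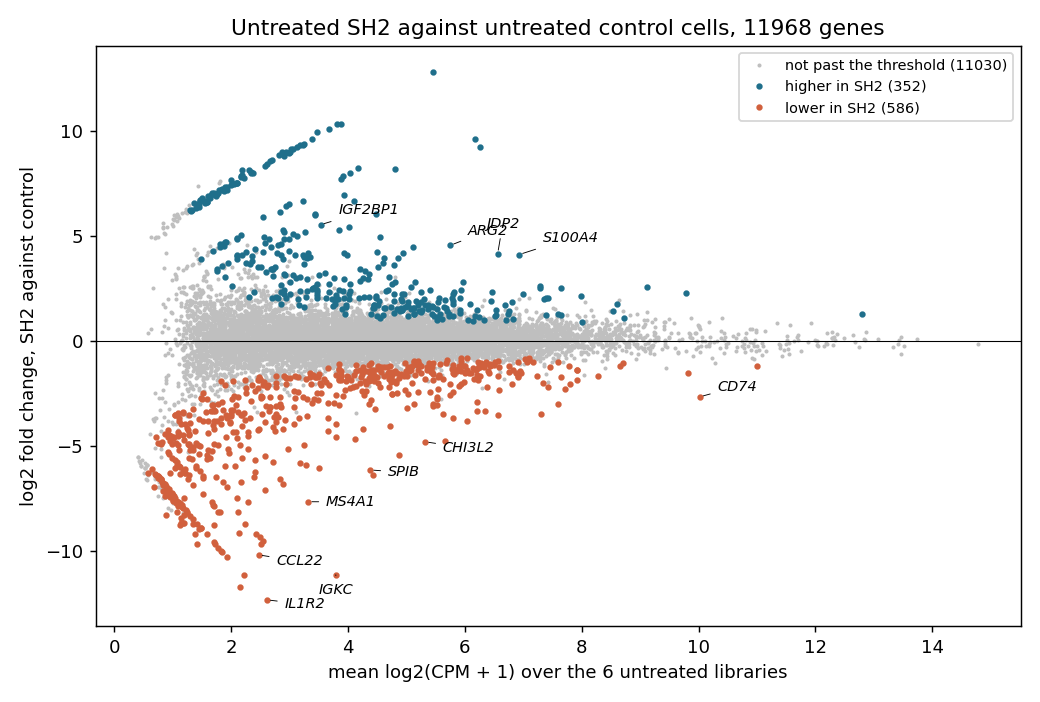
Log2 fold change of SH2 against control cells (y axis) by mean log2(CPM + 1) over the 6 untreated libraries (x axis), 1 point for each of the 11968 genes; colours mark the 352 higher and 586 lower genes. Straight rows of points at the left edge are genes with no count in 1 group, whose fitted value depends on the prior count.

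Genes of the precursor B stage passed no test. None of 15 tested members was called, with a median log2 fold change of 0.61. Across all genes tested, the groups did not overlap, with SH2 higher, for 15.5%. In 2 of the 15 the groups did not overlap, with SH2 higher: TCL1A, a coactivator of AKT (616, 382, 264 and 372 CPM against 110 and 251 CPM; 1.17 ± 0.53, adjusted p = 0.228), and the surface peptidase MME (40.7 to 56.4 CPM against 29.9 and 28.6 CPM; 0.74 ± 0.50, adjusted p = 0.475). DNTT, which encodes terminal transferase, was at 1196, 507, 160 and 621 CPM in SH2 and 190 and 506 CPM in control libraries. The groups overlapped: SH2 set 3 and control set 2 were lowest. Of the surrogate light chain genes, VPREB1 was lowest in control set 2 (26.1 CPM) and IGLL1 in SH2 set 3 (40.8 CPM). The lineage factor PAX5 (-0.22 ± 0.37, log2 fold change ± SE; adjusted p = 0.818) and the recombinase gene RAG1 (1.16 ± 0.72; adjusted p = 0.425) missed the threshold. So did EBF1, an early B factor, at 1.23 ± 0.54 (adjusted p = 0.217). Of the markers of the line, CD34 was not tested for low counts. A missed threshold does not show that these levels are alike.

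**Figure D2:**
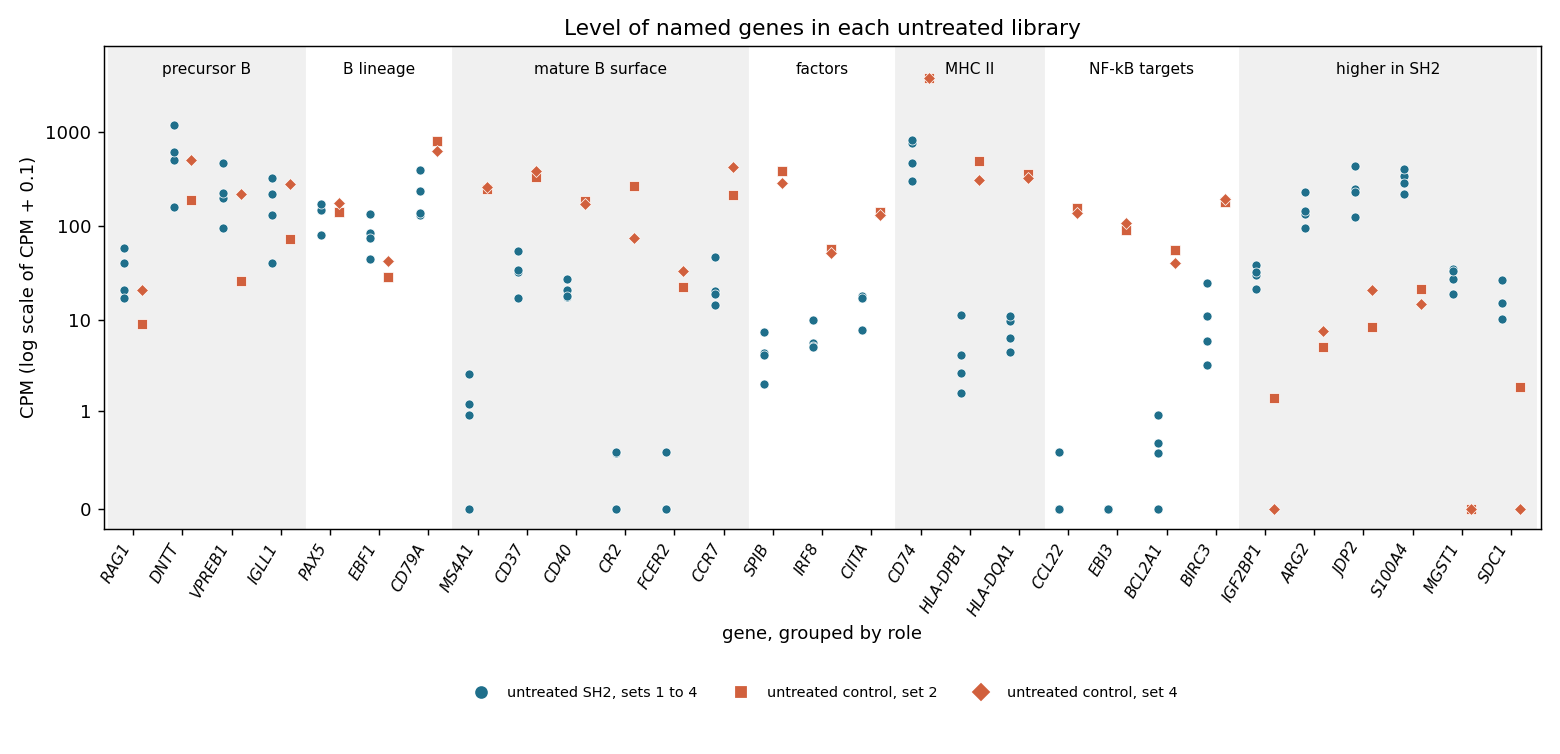
Level of 29 genes in each untreated library (y axis, CPM on a log scale after adding 0.1; x axis, genes by role). Circles are SH2 sets 1 to 4, the square is control set 2 and the diamond control set 4; the precursor genes plotted overlap between the groups, whereas the mature B, MHC class II and NF-kB genes plotted lie higher in both control libraries.

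Receptors of mature B cells were lower in SH2 cells. Of 15 tested members of this list 11 were lower and none higher, against 4.9% of all genes lower, with a median log2 fold change of -2.59. MS4A1 (CD20) was at 0, 0.89, 2.59 and 1.21 CPM in SH2 and 250 and 259 CPM in control libraries. Its log2 fold change was -7.66 ± 1.01 (adjusted p = 0.000369; errors are SE of the fit). CD40, the receptor for T-cell help, stood at 17.6, 21.3, 27.5 and 18.1 CPM against 188 and 172 CPM (-3.09 ± 0.34; adjusted p = 7.79e-05). Both genes had nearly equal levels in the 2 control libraries. The complement receptor CR2 had 2 counts in all SH2 libraries and 769 in the control libraries, a ratio of 964 (95% counting interval 266 to 7970). FCER2 (CD23), the low-affinity IgE receptor, had 1 and 141 counts (353-fold lower, 62.4 to 14100). CCR7, which guides lymphocytes to lymph nodes, was at 20.5, 19, 47 and 14.5 CPM against 214 and 423 CPM (log2 -3.66 ± 0.63). The follicle homing receptor CXCR5 (-5.15 ± 0.80), the tetraspanin CD37 (-3.36 ± 0.40) and the activation marker CD83 (-2.59 ± 0.44) were lower as well. The inhibitory coreceptor CD22 (-1.75 ± 0.46; adjusted p = 0.0307) lost its call without control set 2 (0.126) or set 4 (0.169) and without SH2 set 3 (0.0543) or 4 (0.0789). CD27, a costimulatory receptor shared with T cells, was at 234 and 112 CPM in control sets 2 and 4, and lost its call without control set 2 (log2 -1.81; adjusted p = 0.117). CXCR5, CD83, CD22 and CD27 were chosen after their values were seen. Without control set 2 the list kept 8 lower genes, without set 4 it had 9, and without single SH2 libraries 9 or 10.

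Of 21 tested B-lineage transcription factors 4 were lower and 1 higher, against 4.9% and 2.94% of all genes. Their values were positive for 11, with a median log2 fold change of 0.06. Without control set 2 or set 4 the lower factors were 2. SPIB, a partner of B-cell receptor signalling, was at 2.05, 4.45, 4.21 and 7.54 CPM in SH2 and 382 and 286 CPM in control libraries (-6.15 ± 0.57; adjusted p = 2.42e-05). IRF8 was at 5.74, 5.34, 10.0 and 5.13 CPM against 57.4 and 52.4 CPM (-3.06 ± 0.39; adjusted p = 0.000239). The groups stood far apart for both factors. BCL6, the germinal centre repressor, differed less (-1.22 ± 0.29; adjusted p = 0.0171) and lost its call without control set 2 (0.225) or 4 (0.0541). IKZF3 (-3.31 ± 0.80; adjusted p = 0.0194) lost its call without control set 2 (0.117), control set 4 (0.077) or SH2 set 2 (0.0633). FOXO1, a factor of precursor B cells named after its values were seen, was higher at 39.3, 99.9, 128 and 80 CPM against 19.9 and 31.1 CPM. Its call (1.76 ± 0.50; adjusted p = 0.0459) was lost without either control library (0.379 without set 2, 0.132 without set 4). It was lost without SH2 set 2 (0.11), 3 (0.114) or 4 (0.0717) as well.

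The germinal centre list had 4 lower genes of 9 tested and none higher (2 lower without control set 2, 3 without set 4). RGS13, which damps chemokine signals, had 2 against 72 counts (ratio 90.2, 24.1 to 759). SERPINA9, a protease inhibitor of germinal centre B cells, had no count in SH2 cells against 34, at least 28.4-fold lower against 3 counts over the group. Its call (adjusted p = 0.00799) was lost without control set 2 (0.0548). Of 10 tested plasma cell genes 1 was higher and 1 lower. Beside both lists stand 2.94% higher and 4.9% lower of all genes tested. In the plasma cell list 9 genes had a positive value, and the median log2 fold change was 0.90 (0.95 in treated libraries). The factor IRF4 (1.27 ± 0.41; adjusted p = 0.0769) and the receptor TNFRSF17 (3.29 ± 1.06; adjusted p = 0.0775) missed the threshold, with SH2 above control in every library. SDC1 (CD138), which plasma cells carry, was higher (10.2, 15.4, 15.2 and 26.9 CPM against 1.90 and 0 CPM), and the receptor SLAMF7 was lower (8 against 323 counts; log2 -6.47 ± 0.68). The call of SDC1 (4.25 ± 1.01; adjusted p = 0.0189) was lost without control set 4 (3.14; 0.159), and without control set 2 its value was 8.62.

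Of 10 tested members of the MHC class II list, 5 were lower in SH2 cells and none higher, against 4.9% and 2.94% of all genes tested. The list holds genes of peptide presentation to helper T cells and regulators, among them CIITA, RFX5, RFXAP and RFXANK. The master regulator CIITA was among the 5, and 3 of the 10 had a positive value. The median log2 fold change of the 10 was -2.05. Promoters of the presentation genes carry the SXY module, to which CIITA is recruited. The last element of the module, the Y box, is a CCAAT sequence read on the minus or plus strand. The RefSeq promoters (GRCh38.p14) of the 4 lower genes with an entry are shown from 250 bases before the transcription start up to it; capitals mark CCAAT on either strand. Windows searched ran 50 bases further.
CD74: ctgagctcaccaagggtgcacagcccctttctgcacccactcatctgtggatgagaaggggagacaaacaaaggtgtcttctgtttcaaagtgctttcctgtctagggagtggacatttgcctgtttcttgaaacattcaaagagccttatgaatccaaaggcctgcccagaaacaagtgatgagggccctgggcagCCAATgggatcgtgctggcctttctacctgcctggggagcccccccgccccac
HLA-DPB1: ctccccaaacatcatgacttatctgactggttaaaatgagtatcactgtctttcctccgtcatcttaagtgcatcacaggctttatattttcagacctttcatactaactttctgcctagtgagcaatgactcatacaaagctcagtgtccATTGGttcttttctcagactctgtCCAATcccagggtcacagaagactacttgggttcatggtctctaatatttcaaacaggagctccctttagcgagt
HLA-DQA1: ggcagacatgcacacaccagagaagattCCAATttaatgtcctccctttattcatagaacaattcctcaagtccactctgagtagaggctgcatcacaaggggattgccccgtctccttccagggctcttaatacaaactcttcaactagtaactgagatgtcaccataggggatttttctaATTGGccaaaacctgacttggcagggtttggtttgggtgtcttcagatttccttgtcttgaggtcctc
HLA-DQB1: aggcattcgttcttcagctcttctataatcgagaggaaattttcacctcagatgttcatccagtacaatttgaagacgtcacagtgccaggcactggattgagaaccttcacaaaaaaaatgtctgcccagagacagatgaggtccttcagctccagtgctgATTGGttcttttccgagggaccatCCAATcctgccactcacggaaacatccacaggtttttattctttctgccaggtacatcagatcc
These stretches lie at chr5:150412911-150413160, minus strand; chr6:33075740-33075989, plus strand; chr6:32637156-32637405, plus strand; and chr6:32666658-32666907, minus strand. CCAAT begins 53 bases before the start of CD74, 99 and 75 before HLA-DPB1, 222 and 68 before HLA-DQA1 and 88 and 64 before HLA-DQB1. All 4 lower genes with an entry held it, as did 34.6% of all 35116 promoter windows. Of 4 tested members that were not called 2 held it, HLA-DRB1 and the regulator RFX5, and the regulators RFXAP and RFXANK did not. A match describes these letters and is no measured site.

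CIITA, the master regulator, was at 17.2, 18.1, 7.77 and 17.2 CPM in SH2 and 143 and 133 CPM in control libraries (log2 -3.19 ± 0.33; adjusted p = 4.19e-05). The invariant chain CD74 was at 757, 816, 303 and 475 CPM against 3781 and 3703 CPM (-2.67 ± 0.39; adjusted p = 0.000716). SH2 set 3 was lowest for both, and the control libraries lay close together. HLA-DPB1 was at 11.5, 2.67, 1.62 and 4.22 CPM against 497 and 311 CPM, and HLA-DQA1 at 9.84, 11.0, 6.48 and 4.53 CPM against 361 and 322 CPM. Their log2 fold changes were -6.38 ± 0.69 and -5.42 ± 0.53. HLA-DQB1, named after its values were seen, had -2.44 ± 0.40. HLA-DRB1 was not called (0.15 ± 0.72; adjusted p = 0.95), nor was HLA-DRA (-1.66 ± 0.85; adjusted p = 0.31). Values of HLA genes are uncertain: of 29 genes in the MHC class I and II lists 9 had no count in any of the 12 libraries, and 10 had counts under several gene IDs, of which the ID with the most counts is given. For HLA-DQA1 and HLA-DQB1 the second tested ID was lower as well (-9.15 ± 0.63 and -4.63 ± 0.98). Which alleles either kind of cell carries was not measured, and their part in the HLA values was not tested.

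NF-kB targets of activated B cells were lower in SH2 cells as well. Of all genes tested, 4.9% were lower and 2.94% higher. Of 16 tested members 8 were lower and none higher, with a median log2 fold change of -2.12; the count was also 8 without either control library. Among 7 lower members with a RefSeq promoter, 3 held a kappa B consensus match in the 300-base window, as did 5 of 6 members that were not called and 5.91% of all windows. Of the lower members CCL22, BIRC3 and 1 of the listed starts of CD86 held a match, and TRAF1, BCL2A1, CD80 and EBI3 held none. The 250 bases before the start are shown for CCL22 and BIRC3, with the kappa B consensus on either strand in capitals.
CCL22: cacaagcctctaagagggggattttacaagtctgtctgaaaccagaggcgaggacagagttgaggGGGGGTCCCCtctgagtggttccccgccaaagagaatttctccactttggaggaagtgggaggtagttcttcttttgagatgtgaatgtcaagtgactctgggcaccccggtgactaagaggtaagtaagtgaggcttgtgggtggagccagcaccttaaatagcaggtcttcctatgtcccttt
BIRC3: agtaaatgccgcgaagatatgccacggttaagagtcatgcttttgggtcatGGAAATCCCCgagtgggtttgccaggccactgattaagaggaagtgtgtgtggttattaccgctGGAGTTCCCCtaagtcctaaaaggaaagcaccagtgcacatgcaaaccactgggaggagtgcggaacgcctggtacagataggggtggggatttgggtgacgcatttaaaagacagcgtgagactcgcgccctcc
They lie at chr16:57358533-57358782, plus strand, and chr11:102317234-102317483, plus strand, and the matches begin 185 bases before the start of CCL22 and 199 and 135 bases before that of BIRC3. CCL22, which attracts CCR4-bearing T cells, was at 0, 0, 0 and 0.302 CPM in SH2 and 156 and 138 CPM in control libraries: 1 against 712 counts, a ratio of 1780 (319 to 70600). EBI3, a cytokine subunit of IL-27 and IL-35, had no count in SH2 cells against 494, at least 413-fold lower. BIRC3, an inhibitor of apoptosis, was at 3.28, 5.93, 24.9 and 11.2 CPM against 183 and 197 CPM (log2 -4.05 ± 0.55). BCL2A1, a BCL2 relative, was lower at -6.73 ± 0.60 (adjusted p = 1.44e-05). The costimulatory ligand CD80 had 1 against 169 counts (ratio 424, 75.0 to 16800), and CD86 had a log2 fold change of -4.95 ± 0.89. The adaptor TRAF1 (-3.68 ± 0.64) and the inhibitor NFKBIE (-2.80 ± 0.36; adjusted p = 0.00024) complete the 8. In treated cells TRAF1 had -0.70 (adjusted p = 0.541) and CD86 -2.10 (adjusted p = 0.106), so neither passed there; the interaction with treatment passed the test for no gene. BIRC3, CD86 and TRAF1 were chosen after their values were seen. The inhibitor NFKBIA (-0.62 ± 0.35; adjusted p = 0.358) and TNFAIP3 (-0.45 ± 0.40; adjusted p = 0.615) were not called.

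**Figure D3:**
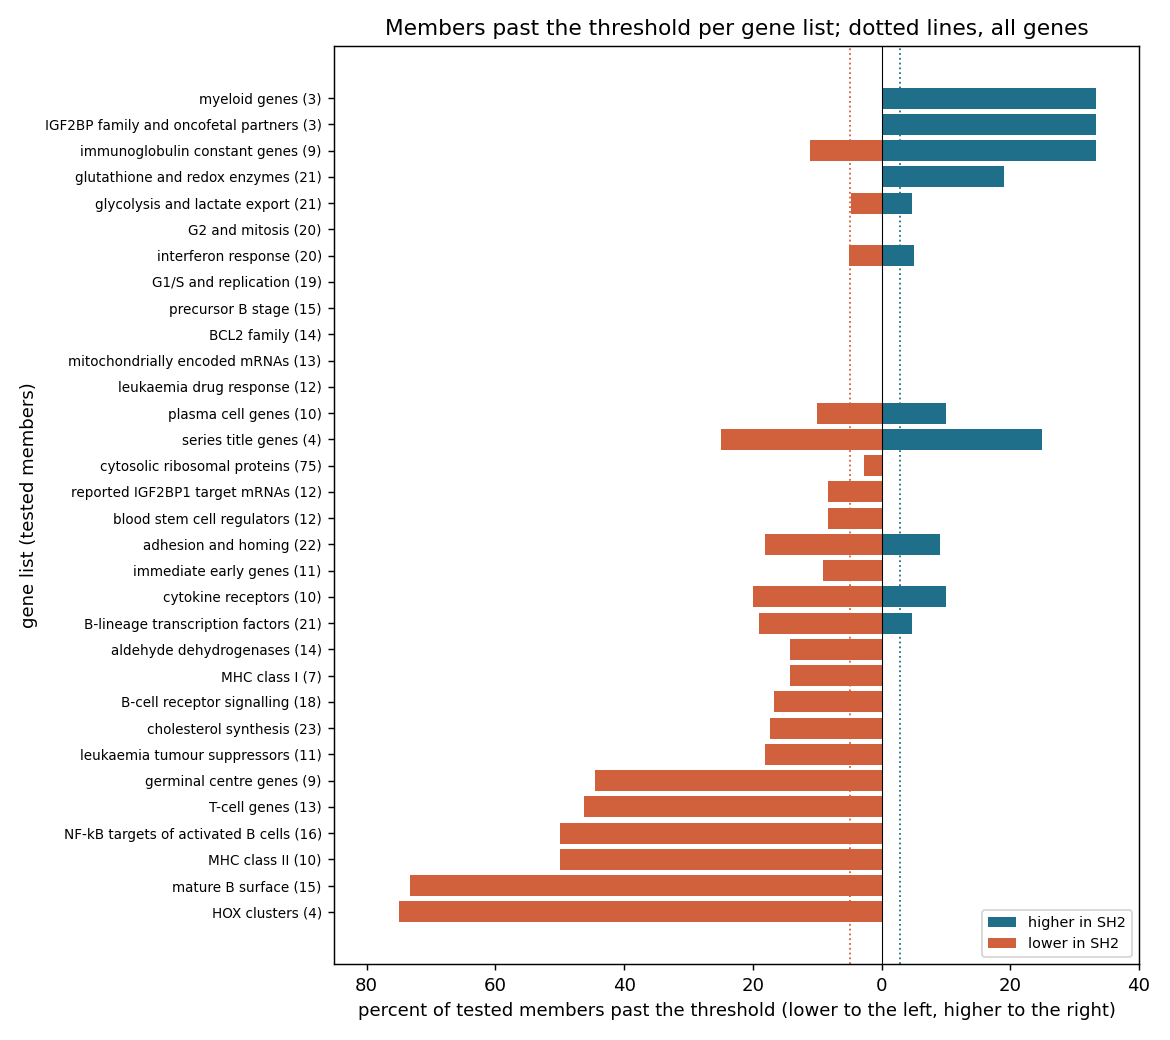
Percent of tested members lower (left) or higher (right) in SH2 cells for each list with at least 3 tested members, whose number stands in brackets; dotted lines give the percent over all genes (4.9 lower, 2.94 higher). Mature B surface genes (11 of 15), MHC class II genes (5 of 10) and NF-kB targets (8 of 16) reach furthest to the left beside the HOX list, of which only 4 genes were tested.

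T-cell genes were lower in SH2 cells as well, but mainly against control set 2. Of all genes tested, 4.9% were lower. Of 13 tested members 6 were lower; without control set 2 none was, and without control set 4 there were 7. The summed level of the list was 129 to 239 CPM in SH2 libraries, 2357 CPM in control set 2 and 338 CPM in control set 4. TRBC2, a constant gene of the T-cell receptor beta chain, was at 12.3, 37.1, 36.3 and 5.43 CPM against 1130 and 121 CPM (log2 -4.77 ± 1.08; -2.40 and adjusted p = 0.405 without control set 2). CD3E, a signalling chain of that receptor, had 1 count in SH2 libraries and 103 and 7.59 CPM in control libraries (adjusted p = 0.00289; 0.0877 without control set 2). Its partner CD3D was at 232 CPM in control set 2, while control set 4 (10.5 CPM) lay within the range of SH2 (2.87 to 18.7 CPM). TCF7 (-3.02 ± 0.80), GATA3 (-5.19 ± 1.40), CD247 (-3.43 ± 0.78) and TRAC (-4.36 ± 1.01) lost their calls without control set 2 (log2 -1.20, -2.60, -2.16 and -3.74; adjusted p = 0.68, 0.626, 0.34 and 0.15). TCF7 and GATA3, both factors of T cells, also lost theirs without SH2 set 1 (adjusted p = 0.0759 and 0.0514), 2 (0.0797 and 0.0893) or 4 (0.0896 and 0.0909), and GATA3 without set 3 (0.0869). Mature B surface genes summed to 2337 and 2314 CPM in control sets 2 and 4, and MHC class II genes to 5081 and 4764 CPM, so neither list shared that split. The part of T-cell reads in the other results was not tested. In such bulk libraries a share of cells and the RNA per cell cannot be told apart.

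Of 10 tested cytokine receptors 2 were lower and 1 higher, with a median log2 fold change of -0.46; 1 was lower and none higher without either control library. IL4R was at 16.4, 19.3, 17.8 and 12.4 CPM in SH2 and 64.1 and 52.4 CPM in control libraries (log2 -1.82 ± 0.30; adjusted p = 0.00155). IL10RA (-3.75 ± 0.85; adjusted p = 0.0144) lost its call without control set 2 (0.0509) or 4 (0.103). IFNAR1, a chain of the interferon receptor, was higher at 0.96 ± 0.27 (adjusted p = 0.045), and this call was lost without any single untreated library (adjusted p = 0.0619 to 0.38). Among adhesion and homing genes, 2 were higher and 4 lower of 22. Beside both lists stand 2.94% higher and 4.9% lower of all genes tested. The integrin chains ITGAL (-3.88 ± 0.39) and ITGB7 (-3.47 ± 0.55) were lower, and ICAM3, a ligand of ITGAL, was higher. ICAM3 was at 53.3, 77.4, 90.4 and 97.5 CPM against 0 and 2.17 CPM (6.01 ± 0.67; 10.82 without control set 4). CADM1, an adhesion molecule of many epithelia, had 353 counts against 0, at least 46.9-fold higher. The homing receptor CCR7 and the junction protein JAM3 were the other lower members. JAM3 had no count in SH2 and 28 and 0.362 CPM in control sets 2 and 4, the order of T-cell genes. Its call (adjusted p = 0.0393) was lost without control set 2 (log2 -3.22; 0.744) and without SH2 set 1 (0.0596), 2 (0.0827), 3 (0.0727) or 4 (0.0762). FAS, a death receptor, was lower at 1.23, 0.297, 1.94 and 2.11 CPM against 14.7 and 24.9 CPM (-3.79 ± 0.65), and TNFRSF10B, a receptor for TRAIL, had -4.56 ± 0.60.

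Of the genes of the series title, 1 was higher and 1 lower. IGF2BP1 was at 21.7, 30.5, 39.2 and 32.9 CPM in untreated SH2 cells and at 1.42 and 0 CPM in control cells (log2 5.52 ± 0.84, and 9.49 without control set 2). In counts that is 386 against 3, a ratio of 51.3 (17.4 to 250). Its paralogue IGF2BP3 was detected in both kinds of cell (27.0, 38.3, 31.7 and 50.1 CPM against 20.4 and 28.2 CPM; 0.60 ± 0.33, adjusted p = 0.355). HOXB4, a homeobox factor of blood stem cells, went the other way, with 11 counts in SH2 and 35.6 and 11.6 CPM in control libraries (-4.62 ± 0.57). MYB (0.20 ± 0.51) and ALDH1A1 (0.35 ± 0.98) were not called (adjusted p = 0.891 and 0.902). ALDH1A1 varied within SH2 cells from 22.1 CPM in set 1 to 1.30 CPM in set 3. Only 4 of the 39 HOX genes could be tested. HOXB7 (no count against 29) and HOXC4 (-3.83 ± 0.86; adjusted p = 0.0133) were lower beside HOXB4; HOXC4 lost its call without control set 2 (0.0782) or 4 (0.0634). Among 12 tested mRNAs reported as IGF2BP1 targets HOXB4 alone was called, and the median log2 fold change was 0.10.

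Several groups differed in few members or in none, beside 4.9% lower and 2.94% higher of all genes tested. Of 18 tested genes of B-cell receptor signalling 3 were lower, and none was without either control library. PLCG2, the phospholipase below the receptor, was at 22.9, 42.4, 52.1 and 61.3 CPM in SH2 and 121 and 126 CPM in control libraries (log2 -1.46 ± 0.32; adjusted p = 0.0104). Its adjusted p was 0.0759 without control set 2 and 0.0754 without set 4. The receptor chain CD79A (-1.66 ± 0.46; adjusted p = 0.0397) kept its call only without SH2 set 4; the other leave-outs gave 0.0811 to 0.271. Its partner CD79B was not called (-0.18 ± 0.27; adjusted p = 0.801). Of 23 tested cholesterol synthesis enzymes 4 were lower, with 1 left without control set 2 (DHCR7, -1.36 ± 0.28) and 0 without set 4. Of 14 aldehyde dehydrogenases 2 were lower, with 0 left without control set 2 and 1 without set 4. Among them ALDH1A2, a retinal dehydrogenase, had no count in SH2 and 33.2 and 2.89 CPM in control sets 2 and 4. None of 20 genes of G2 and mitosis, 19 of G1/S and replication, 14 of the BCL2 family and 12 of leukaemia drug response was called by edgeR. Positive values numbered 19, 17, 6 and 7, with median log2 fold changes of 0.46, 0.39, -0.01 and 0.12. For G2 and mitosis the median was 0.41 within set 2 and -0.49 within set 4. Their summed level was 3428, 3311, 2626 and 720 CPM in SH2 and 2668 and 1174 CPM in control libraries. A missed threshold does not show that levels are alike.

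Genes higher in SH2 cells formed fewer groups. Of 21 tested glutathione and redox enzymes 4 were higher and none lower, against 2.94% of all genes higher (3 without control set 2, 2 without set 4, and 3 or 4 without 1 SH2 library). The median of the list was 0.01, and 11 of the 21 values were positive. MGST2 (25.0, 52.8, 72.6 and 40.7 CPM) and MGST1 (19.3, 27.9, 35.0 and 33.5 CPM), membrane-bound transferases, had no count in control libraries. GSTP1, a cytosolic transferase, was at 1280, 2188, 1619 and 1088 CPM against 398 and 238 CPM (log2 2.28 ± 0.46; 1.96 and adjusted p = 0.103 without control set 4). HMOX1, heme oxygenase, ranged from 3.28 to 63.5 CPM in SH2 against 1.42 and 0.362 CPM. Its call (4.97 ± 1.38; adjusted p = 0.0421) was lost without either control library (6.09 and 0.2 without set 2, 4.24 and 0.261 without set 4), and without SH2 set 2 (0.0618), 3 (0.0821) or 4 (0.0673).

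The abundant genes with higher levels in SH2 cells and the largest differences included ARG2, the mitochondrial arginase, at 96.3, 135, 232 and 144 CPM against 5.22 and 7.59 CPM (log2 4.54 ± 0.66; adjusted p = 0.000702). JDP2, a repressor of the AP-1 family, was at 126, 439, 252 and 234 CPM against 8.54 and 21.0 CPM (4.14 ± 0.65; adjusted p = 0.00122). S100A4, a calcium-binding protein, was at 221, 341, 287 and 409 CPM against 21.8 and 14.8 CPM (4.10 ± 0.53; adjusted p = 0.000243). These 3 genes remained past the threshold when any single untreated library was left out. Other calls depended on both control libraries: the cytokine subunit IL23A (4.46 ± 1.07), the interferon-induced GTPase MX2 (2.81 ± 0.58), the stress gene NDRG1 (2.61 ± 0.70), the mannosidase MAN1A1 (2.57 ± 0.55) and the translocon subunit SEC61G (2.55 ± 0.61). Without control set 2 their adjusted p-values were 0.205, 0.103, 0.322, 0.0812 and 0.175, and without set 4 they were 0.123, 0.0796, 0.131, 0.122 and 0.134. NDRG1 also lost its call without SH2 set 2 (0.0797) or 3 (0.0681). SERPINE2, a protease inhibitor, had 2.79 ± 0.68 and an adjusted p of 0.237 without control set 2. In the glycolysis list 1 gene was higher and 1 lower of 21 tested, near the 2.94% and 4.9% of all genes. Most of its values were lower in SH2 cells: only 3 of the 21 were positive, and their median was -0.71. Within set 2 the median was -0.89, and within set 4 it was -0.13. The list summed to 6623, 6239, 3857 and 5340 CPM in SH2 and 11876 and 5969 CPM in control libraries, so control set 4 lay within the SH2 range. TPI1 was the lower gene at -1.41 ± 0.33 (adjusted p = 0.0161), with -0.79 without control set 2. SLC16A3, which exports lactate, was the higher one at 4.18 ± 0.94 (6.62 without control set 2, 3.21 without control set 4). Its call was lost without control set 4.

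On the other side, abundant genes were lower in SH2 cells. CHI3L2, a chitinase-like protein, was at 6.97, 21.1, 16.5 and 9.05 CPM in SH2 and 499 and 264 CPM in control libraries (log2 -4.81 ± 0.44; adjusted p = 1.68e-05). GRN, progranulin, was at 71.3, 72.9, 60.6 and 75.7 CPM against 740 and 836 CPM (-3.49 ± 0.27; adjusted p = 4.02e-06). The groups lay far apart for both, and GRN varied little within either. The actin-binding protein COTL1 (-3.83 ± 0.45), SWAP70, a signalling protein of activated B cells (-3.53 ± 0.42), the tetraspanin CD82 (-3.36 ± 0.35) and the noncoding host gene MIR4435-1HG (-3.04 ± 0.44) were lower as well. CPNE5 (-3.50 ± 0.72) missed the threshold without control set 4 (adjusted p = 0.052).

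Some genes had counts in 1 kind of cell only. Counting those with at least 10 counts in every library of 1 kind and 0 in the other, 40 genes were on in SH2 and 50 in control cells. IL1R2, the decoy receptor of interleukin 1, had 1120 counts in control libraries (216 and 240 CPM) and none in SH2, at least 936-fold lower. FCRL3, an Fc receptor-like protein of B cells (38.4 and 73.7 CPM), NLRP4 (31.8 and 57.8 CPM) and the imprinted gene PEG10 (29.4 and 23.5 CPM) had none either. ITM2A and HES4 were high mainly in control set 2 (270 against 26.8 CPM and 69.3 against 3.98 CPM in set 4), as T-cell genes were; HES4 lost its call without that library (adjusted p = 0.125). In SH2 cells CRISP3, a secreted protein (32.4, 33.5, 23.6 and 14.8 CPM), and PRF1, the perforin of killer cells (6.56, 8.90, 5.51 and 11.2 CPM), were on, while the other NK-cell gene tested, NKG7, was not called (-0.83 ± 0.73; adjusted p = 0.608). PRF1 was named as a member of the NK-cell list, and the lists were chosen with earlier results of these data known. Of the 40 genes on in SH2 cells 29 had no count in treated control libraries either, and of the 50 on in control cells 37 had none in treated SH2 libraries.

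The same contrast in treated cells, from 6 other libraries, gave 1326 called genes (11.1%; 550 higher, 4.6%, and 776 lower, 6.48%). All 938 genes had the same sign there, and 780 were called in the same direction, 83.2% of the untreated and 58.8% of the treated calls. The groups did not overlap, in the same direction, for 888. Across all genes tested, the treated groups did not overlap for 15.4% (SH2 higher) and 16.6% (SH2 lower). For the change of this difference with doxycycline (interaction, edgeR), 0 genes passed the threshold, and 116 had an unadjusted p under 0.05. That is fewer than chance alone would give among 11968 genes. The fit had no term for the set. A missed threshold does not show that the difference stayed alike. By their labels, the treated libraries are further samples of the same SH2 and control cells, not of other lines.

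**Figure D4:**
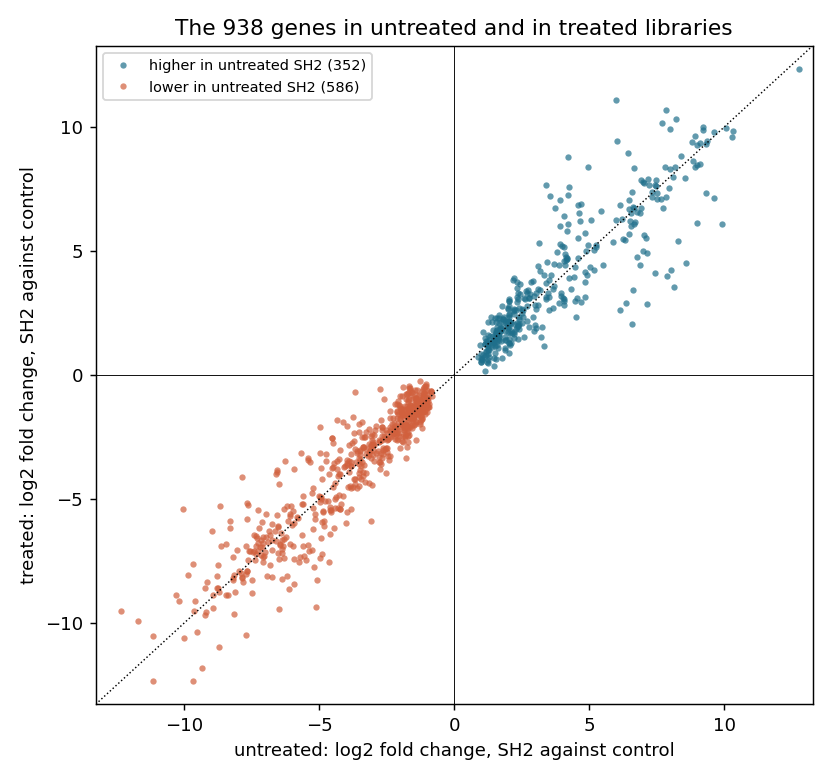
Log2 fold change of SH2 against control cells in untreated (x axis) and treated (y axis) libraries for the 938 genes called in untreated cells; the dotted line marks equal values. All 938 lie in the quadrants of equal sign.

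Differences also followed position along some chromosomes (hg38). Chromosome 4 had the highest median log2 fold change of any chromosome at 0.55 over 396 tested genes, with 29 higher and 8 lower (0.56 in treated libraries), and chromosome 3 the lowest at -0.23 over 656, with 12 higher and 50 lower. Among genes whose mean log2(CPM + 1) reached 4, medians were taken in bins of 20 Mb. Over all 6564 such genes the median was 0.05. On chromosome 3 the bins from 0 to 60 Mb were at -0.41, -0.42 and -0.60, and of 152 genes there 19 had a positive value. Beyond 60 Mb the median of 201 genes was 0.07. Chromosome 4 had no such step: its bins ran from 0.47 to 0.76, and 162 of 194 genes were positive. On chromosome X the first 60 Mb had 0.60 (82 of 97 genes positive) and the rest 0.10. In sets 2 and 4 taken singly the first 60 Mb of chromosome 3 had -0.45 and -0.52, chromosome 4 had 0.48 and 0.48, and the first 60 Mb of chromosome X had 0.63 and 0.47. Treated libraries gave -0.63, 0.54 and 0.76. Of 123 bins with at least 20 genes 17 lay beyond 0.4 in either direction, and all 17 did so with the same sign in treated libraries. Bins and stretches were chosen after the values were seen and carry no test. DNA copy number was not measured, and its part in these values was not tested.

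**Figure D5:**
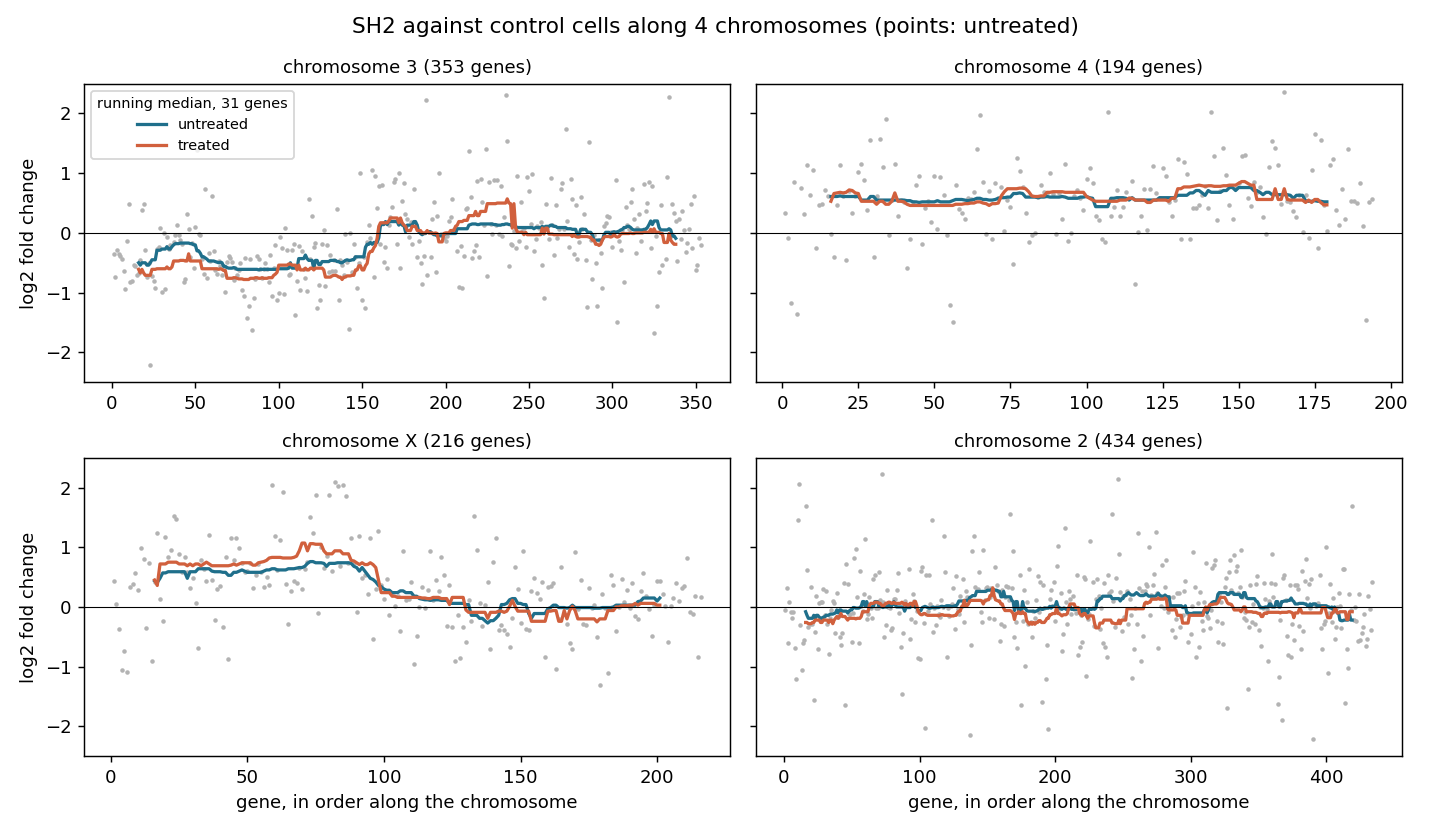
Log2 fold change of SH2 against control cells for expressed genes in their order along chromosomes 3, 4, X and 2 (grey points, untreated; values beyond 2.5 fall outside the axis), with running medians over 31 genes for untreated and treated libraries. The first part of chromosome 3 lies below 0, all of chromosome 4 and the first part of X above it, and chromosome 2 near 0.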

How the data were processed

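RNA of 6 untreated libraries of ALDH+ 697 cells (4 SH2, 2 control) was compared; all 12 libraries entered the fit to share 1 estimate of the spread. The authors deposited whole-number counts of reads per gene, made with STAR and HTSeq on hg38 per the submitters' processing notes; their versions, and the annotation counted, were not stated in the labels or headers. HTSeq's 5 summary lines were dropped from the 64253 gene IDs of every table; alignments that were not unique were 46.3% to 63.8% of all reads in the untreated libraries. A series-wide table of normalized signal that the authors deposited was used only for an alternative test and gene names. Positions are from GENCODE 29 (GRCh38). Replicates were separate sorts per the series text, and no replicate pair agreed within sampling noise.

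Counts were fitted in R 4.3.3 with edgeR 4.0.16 (filterByExpr with minimum count 10, TMM, 1 term per group, robust quasi-likelihood; adjusted p threshold 0.05); limma 3.58.1 and DESeq2 1.42.0 served alternatives, and Python with pandas made the tables. The biological coefficient of variation was 0.376. In simulated counts (11614 genes) the test recovered 0% of genes changed 2-fold, 58.1% of those changed 4-fold and 80% of those changed 8-fold. Errors are SE of the fit; ratios from 1 to 3 counts carry exact 95% intervals of counting error. Counts are of reads, which can be copies of 1 molecule.

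Genes were named by rule: the 12 largest differences per direction among called genes whose mean log2 CPM reached 5 and whose groups did not overlap; the title genes; the 4 smallest p-values of each list; and the 10 genes per direction with most counts among those at 0 in 1 kind of cell. The members, the 36 gene lists and this rule were chosen with earlier results of these data known. Reads of IGLC, TRBC and HLA genes may be shared between similar copies. Outside the rule, chosen after their values were seen, are MS4A1, CD22, CXCR5, CD27, CD83, BIRC3, TRAF1, CD86, HLA-DQB1, HLA-DRA, HLA-DRB1, NFKBIA, TNFAIP3, DNTT, VPREB1, IGLL1, PAX5, EBF1, FOXO1, CD3D, GATA3, JAM3 and CD72. So are CD79B, IGHM and NID2. Some genes and groups are not reported here. Alternatives changed the scaling, the filter, the test, the libraries fitted and the set term. Promoters are from RefSeq.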

Additional observations from a re-analysis of the deposited data

Results flagged for a closer look

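Among 184 named genes, the 4 untreated SH2 libraries were searched for a library far from the other 3 (Dixon's test); 12 genes had one, and chance flags about 1 group in 20. In 5 of them the value rests on 1 count or fewer: FCER2 (0.302 CPM in set 4), CCL22 (0.302 in set 4), CD3E (0.302 in set 4), CD80 (0.324 in set 3) and TRAC (0 in set 1, against 1.19 to 1.30 elsewhere). SH2 set 3 was high for IRF8 (10.0 CPM against 5.13 to 5.74), CXCR5 (7.13 against 0.41 to 0.905) and MT-ND6 (136 against 19.9 to 23.8), and low for CIITA (7.77 against 17.2 to 18.1). SH2 set 4 was high for IGKC (1.81 CPM against 0 to 0.297) and CD72 (46.2 against 19.6 to 21.1), and low for AURKA, a mitotic kinase (21.1 against 63.2 to 67.2).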

How the results depend on the processing

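The genes called were 938 in the fit reported and 1449 without a filter on low counts, 609 with a stricter filter, 413 in sets 2 and 4 alone and 343 to 853 when 1 library was left out. The genes called higher in SH2 (352) were 619, 239, 155 and 99 to 359, and 560 by the Wald test of DESeq2. The genes called lower in SH2 (586) were 830, 370, 258 and 244 to 494. With the set as a replicate block the genes called were 1505, 914 of the 938 among them, and the genes called higher in SH2 were 687. Deviations of same-set libraries correlated at 0.195 (set 2) and 0.315 (set 4), with 2 pairs only. Pairs of different sets ran from -0.315 to 0.165. With 2 control libraries their deviations mirror each other, so these correlations cannot show whether libraries pair by set. Of 98 named genes called, 35 lost the call without control set 2 and 29 without control set 4, and none under the block or DESeq2 size factors.

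Signs turned only for genes that were not called. With the replicate block MYB had a log2 fold change of -0.14, ALDH1A1 -0.12, MERTK -0.12 and NID2 -0.03. By limma-trend ALDH1A1 had -0.27. IGHM had 0.02 with the block and 0.04 in sets 2 and 4 alone, where PAX5 had 0.01. IGLL1 had 0.00 by DESeq2 and 0.01 without a filter. Without 1 library at a time the values ran from -0.24 to 0.41 for MYB, -0.23 to 0.69 for ALDH1A1, -0.23 to 1.50 for MERTK, -1.20 to 1.21 for WNT16, -6.60 to 0.00 for TAL1, -1.35 to 0.06 for NKG7, -1.05 to 0.27 for MT-ND5, -0.66 to 1.28 for IGLL1, -0.69 to 1.70 for NID2, -4.38 to 0.08 for CD3D and -0.83 to 0.65 for IGHM. The cause was not tested. With 2 control libraries, smaller changes could be missed.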
